A study of Homo sapiens with 6 samples.

Results

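RNA of MDA-MB-231 cells given the hsa-miR-205-5p precursor was compared with RNA of the same line given a scrambled control, on 4 of the 6 arrays of the series. The members were chosen by the sample labels as the 2 arrays labelled with the hsa-miR-205-5p precursor and the 2 labelled with the scrambled control. MDA-MB-231 is an established line of human breast cancer cells with a mesenchymal appearance, and the pre-miR molecules, synthetic precursors of a miRNA, were brought in by reverse transfection at 30 nM, the control being a pre-miR with a scrambled sequence. RNA was taken after 72 h, and all 6 arrays, with the 2 of hsa-miR-214-3p among them, lay on 1 slide and carried 1 dye (Cy3), so that position on the slide and group cannot be told apart.

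A miRNA guides an Argonaute protein to messenger RNAs that pair with its seed, a short stretch near its 5′ end, and the paired messenger is then degraded or translated less. miR-205 is known as a miRNA of epithelial cells that is scarce in mesenchymal lines of breast cancer, and the repressors ZEB1 and ZEB2 are among its best known targets. The mature strand is shown because it is the strand that the precursor yields, and its seed decides the pairing. It is given from 5′ to 3′ with the seed, bases 2 to 8, in capitals, as RefSeq lists it for GRCh38.p14 on the plus strand of chr1:209432166-209432187.
hsa-miR-205-5p: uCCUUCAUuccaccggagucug
MIR205HG, the host gene of the miRNA, was not matched to a probe, and the arrays hold no value for the miRNA itself.

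The processed signal of each spot was put on a log2 scale and the 75th percentile of its array was subtracted, and every value below is on that normalized log2 scale. Of the 58717 noncontrol spots, 20813 to 24759 per array stood well above background (35.4% to 42.2%), and 0 were saturated. Of 50599 probes, 18464 passed the filter on dim probes, and they stood for 11974 genes. A gene was called lower or higher when limma's adjusted p was under 0.05 and the difference came to 2-fold or more. "Lower" and "higher" without other words mean with hsa-miR-205-5p against the scrambled control. The methods speak in general of 2 or more independent experiments and do not say whether the 2 arrays of a group came from separate cultures, so a p measures only the spread between these samples, which may be technical, and fewer cells of a kind cannot be told apart from less RNA per cell.

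The label of the line was checked against 10 genes known to be abundant in it. All 10, among them VIM, CD44, AXL and CAV1, stood well above background on all 4 arrays, and their median log2 fold change was 0.093, whose sign turned under 4 of 5 scalings and whose side of the median of all genes turned under 3. FOSL1, a subunit of AP-1, was the only 1 of them called, with signals of 3.08 and 2.96 against 4.19 and 4.09 in the control and a log2 fold change of −1.12. Of 8 luminal and epithelial markers expected to be low or absent in the line, 6 were tested and all of these lay above 0 on their brightest probe. Of these, KRT8 and KRT18 were not low, with 7.39 and 6.93 and 9.31 and 9.06 in the control. Of 5 leukocyte markers, CD68 alone passed the filter on dim probes. It is also a lysosomal membrane protein, and it was called lower with a log2 fold change of −1.05. None of the 6 fibroblast markers passed that filter, COL1A1 and DCN among them.

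With hsa-miR-205-5p, 956 of 11974 genes were called lower (7.98%) and 572 were called higher (4.78%), so that 62.6% of the calls were falls. The median over all genes was 0.077 (0.070 with the genes that have only a bound placed at it), and 5429 genes (45.3%) lay below 0. Of the genes called lower, 700 were well above background on all 4 arrays and 184 stood well above background on neither array with hsa-miR-205-5p, so that their fall is given as at least so many fold, with the lowest signal that stood well above background on the array in place of a dimmer one. Of the genes called higher, 518 were well above background on all 4 arrays and 31 were not well above background on either control array. The bound reached 2-fold in 71 of those 184 and in 28 of those 31, and the others count as called by the fitted value without a measured 2-fold change. For a gene well above background on 1 array of a group, the log2 fold change rests in part on a signal at background and is an estimate. Among the genes measured on all 4 arrays the change reached 4-fold in 116 of the 700 called lower and in 44 of the 518 called higher. Where a list is described below, the shares of all genes (7.98% lower and 4.78% higher) are what its counts stand beside. Protein-coding genes made up most of the calls, with 896 lower and 547 higher of 11023 tested. Among 510 long noncoding RNAs, 23 were called lower and 20 higher. A number in parentheses after a gene that rose or fell is its log2 fold change.
The split of the calls depended on the scaling. When each array was scaled to its median signal, the median of all genes moved from 0.077 to −0.31 and 89.8% of the calls were falls, with 1876 genes lower and 212 higher. After normexp background correction 82.1% of the calls were falls, with 616 genes lower and 134 higher. The median of a gene list is therefore read below against that of all genes. Single arrays weighed on the counts as well. Without hsa-miR-205-5p replicate 2, limma called 0 genes lower and 0 higher after adjustment, against 1101 and 729 at an unadjusted p, and every count of calls against the control given below ends there too. Without hsa-miR-205-5p replicate 1 the counts were 564 and 207, without scrambled control replicate 1 they were 1400 and 1065, without its replicate 2 they were 794 and 526, and with either one of the hsa-miR-214-3p arrays left out they were 405 and 212, as with only the 4 arrays compared, since a group left with 1 array adds nothing to the spread. The methods' t-test on the same 4 arrays called 0 genes in either direction after adjustment, and 692 lower and 448 higher at an unadjusted p.
The control replicates were not placed alike among the calls. Scrambled control replicate 1 lay below replicate 2 in 38.7% of all genes, but in 73.3% of the genes called lower and in 25.5% of those called higher. In most called genes of either direction, replicate 1 was thus the control array nearer to the hsa-miR-205-5p arrays. What part this has in the calls was not tested. Replicate 1 of hsa-miR-205-5p lay below its replicate 2 in 39.0% of all genes, 39.7% of those called lower and 43.0% of those called higher.

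**Figure D1:**
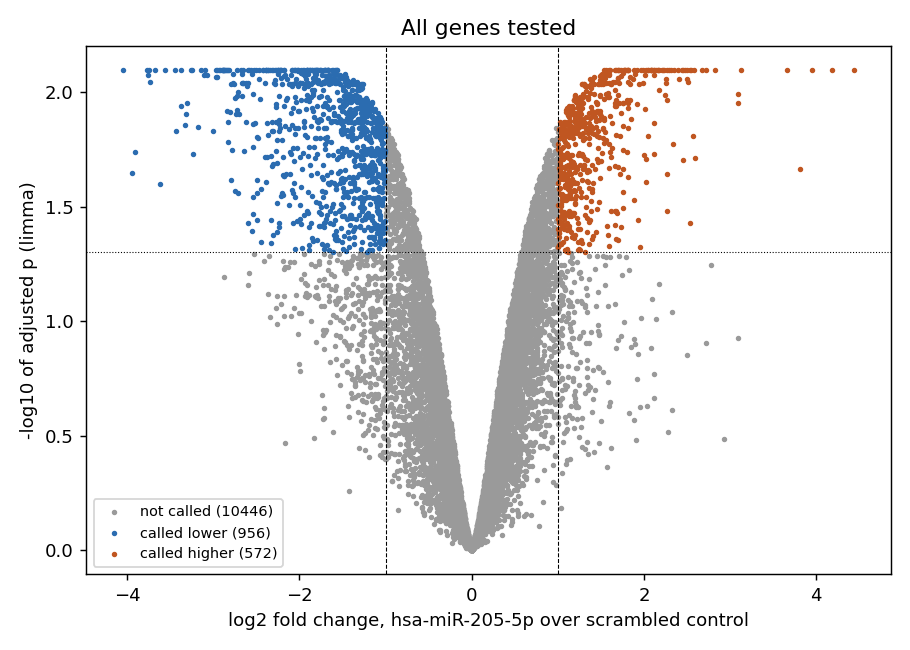
Log2 fold change of each of the 11974 genes tested (x axis) against the negative log10 of the adjusted p from limma (y axis), with 956 genes called lower in blue, 572 called higher in orange, and lines at 2-fold and at an adjusted p of 0.05. For genes at background in a group the position on the x axis is an estimate and not a measured fold.

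The largest fall among genes measured on all 4 arrays was that of AP1M2, the epithelial medium subunit of the clathrin adaptor AP-1. Its signal was −0.64 and −0.31 on the hsa-miR-205-5p arrays and 3.07 and 4.08 on the control arrays, a log2 fold change of −4.05 (adjusted p = 0.00799, standard error 0.38). CST2, a secreted cystatin, measured 0.92 and 0.85 against 4.14 and 4.40 in the control, a log2 fold change of −3.38 (adjusted p = 0.00799, standard error 0.17). SSR2, a subunit of the complex that flanks the translocon of the endoplasmic reticulum (ER), measured 1.64 and 1.34 against 4.16 and 5.45, a log2 fold change of −3.31 (adjusted p = 0.0111, standard error 0.43). In each of these genes both hsa-miR-205-5p arrays lay far below both control arrays, and the control replicates of AP1M2 and SSR2 differed by more than those of CST2. ALDH3A1, an aldehyde dehydrogenase, had log2 signals of −0.45 and −0.48 against 2.73 and 2.63, and its log2 fold change was −3.15, with its other probe at −2.47. ERG28, a scaffold of sterol synthesis, measured 0.18 and −0.34 against 2.64 and 3.41 in the control (log2 fold change −3.10). YARS1, the tyrosyl-tRNA synthetase, measured −0.074 and −0.031 against 2.57 and 3.27 (log2 fold change −2.97). The groups of these 3 genes did not overlap either, which was a condition for a place among the largest falls and rises. CDC42BPA, a kinase that acts on the cytoskeleton below CDC42, GTSE1, a microtubule-associated protein of dividing cells, and NXF1, which exports messenger RNA from the nucleus, fell, with log2 fold changes of −2.95, −2.93 and −2.92. The proteasome subunit PSMD13 and the small nucleolar RNAs SNORA70B and SNORA70E, described with their families below, complete the 12 largest falls.
The largest rise among genes measured on all 4 arrays was that of IL23A, the p19 subunit of interleukin 23. Its signal was 5.38 and 5.37 with hsa-miR-205-5p and 1.50 and 1.34 in the control, a log2 fold change of 3.95 (adjusted p = 0.00799, standard error 0.16). IFNL2, an interferon of the lambda type, measured 1.67 and 1.74 against −0.96 and −1.07, a log2 fold change of 2.72 (adjusted p = 0.00799, standard error 0.17). HHIP, which binds Hedgehog ligands and dampens their signal, measured 2.13 and 2.06 against −0.73 and −0.43, a log2 fold change of 2.68 (adjusted p = 0.00799, standard error 0.17). All 3 genes were high on both hsa-miR-205-5p arrays and low on both control arrays, and in each the replicates of a group lay close together. PKIA, an inhibitor of protein kinase A, measured 3.71 and 3.92 against 1.52 and 0.96 in the control (log2 fold change 2.58). B3GNT3, a glycosyltransferase that extends O-glycans, measured 6.18 and 6.69 against 4.19 and 3.65 (log2 fold change 2.52). IL1RAP, the accessory chain of the interleukin 1 receptor, measured 1.81 and 1.76 against −0.78 and −0.53 (log2 fold change 2.44), and its other probe gave 1.90. No control array reached a hsa-miR-205-5p array in these genes, as the rule for choosing them required. KRTAP2-3, the secreted ANGPTL2, C16orf74, EMC10 of the ER membrane, CRYBG2 and the mitochondrial creatine kinase CKMT1A rose by log2 fold changes between 2.45 and 2.55. The second probe of EMC10 gave 0.98. CKMT1A has a near-identical neighbour gene, CKMT1B, so that its probe may not tell both apart.

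**Figure D2:**
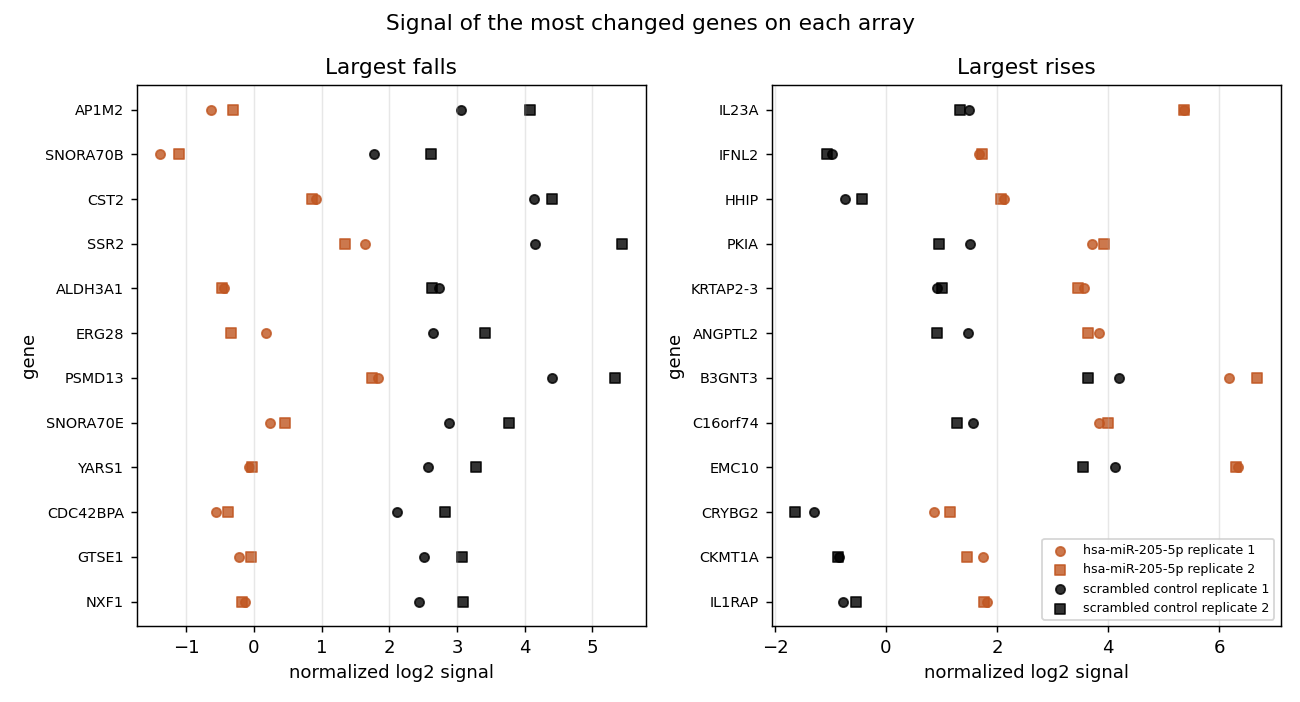
Normalized log2 signal (x axis) of the 12 genes with the largest fall and the 12 with the largest rise (y axis) on each of the 4 arrays, hsa-miR-205-5p in orange and the scrambled control in black. In every row the orange and the black points stay apart, since only genes whose groups do not overlap were taken. In most falls the lower black point is scrambled control replicate 1.

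Of 25 reported targets of miR-205 that were tested, 3 were called lower (background 7.98%) and 1 was called higher (background 4.78%). Their median log2 fold change was −0.16, or −0.14 with the gene that has only a bound placed at it, beside 0.077 for all genes. Both hsa-miR-205-5p arrays lay below both control arrays for 9 of the 25, where 28.6% of all genes did so, and above them for 6, where 36.6% of all genes did so. ITGA5, the integrin chain that pairs with ITGB1 to bind fibronectin, had signals of 2.23 and 2.16 with hsa-miR-205-5p and 3.61 and 3.83 in the control, a log2 fold change of −1.53 (adjusted p = 0.00864, standard error 0.16). INPPL1, the lipid phosphatase SHIP2, measured 3.12 and 3.05 against 4.52 and 4.37, a log2 fold change of −1.36 (adjusted p = 0.00914, standard error 0.15). Both genes had groups that did not overlap, and the 2 probes of INPPL1 lay close to each other, at −1.36 and −1.26. MED1, a subunit of the Mediator complex, was well above background on a single array with hsa-miR-205-5p, with signals of −0.99 and −2.05 against 0.092 and 1.34 and a log2 fold change of −2.23 (adjusted p = 0.0389, standard error 0.52). ERBB3, a receptor of neuregulins, was the target called higher, with signals of 1.32 and 1.20 against 0.035 and 0.064 and a log2 fold change of 1.21 (adjusted p = 0.0125, standard error 0.17). All values of ERBB3 with hsa-miR-205-5p lay above those of the control, but its other probe gave 0.048.
ZEB1, the repressor of epithelial genes, measured 3.15 and 3.31 with hsa-miR-205-5p against 4.07 and 3.50 in the control, a log2 fold change of −0.56 (adjusted p = 0.147, standard error 0.23). Its groups did not overlap, yet the gene was not called, and its 2 probes gave −0.56 and −0.47. ZEB2, the related repressor, stood well above background on neither array with hsa-miR-205-5p, and since limma did not call it (adjusted p = 0.579) its fold is left out. Some further targets had an adjusted p under 0.05 and a difference under 2-fold. PTK7, a receptor-like protein of the Wnt pathway, NOTCH2 and the cell cycle factor E2F1 had log2 fold changes of −0.87 (adjusted p = 0.021), −0.83 (0.036) and −0.81 (0.0254). SMAD1, a transducer of BMP signals, had 0.87 (adjusted p = 0.0593). The phosphatase PHLPP2 had −0.68, and its other probe gave 0.65. VEGFA, YES1, CCN1 and HMGB1 lay above 0, between 0.33 and 0.87, and none of them was called. TP53INP1, PRKCE, BCL6, SRC and LRP1 lay below 0, between −0.76 and −0.14, and the other probe of LRP1 gave 0.71. DDX5, SMAD4, BCL2L2 and LAMC1 stayed within 0.10 of 0 on the log2 scale, with −0.34 on the other probe of SMAD4.
Of the 12 genes of miRNA processing and function that were tested, limma called 0 in either direction, also at an unadjusted p, and the methods' t-test called 0. The Argonaute genes AGO2, AGO1 and AGO3 passed the threshold for p with differences under 2-fold. AGO2, the Argonaute that can cut its target, measured 4.58 and 4.63 against 3.75 and 3.69 in the control, a log2 fold change of 0.89 (adjusted p = 0.0186, standard error 0.15). AGO1 and AGO3 had log2 fold changes of 0.70 and 0.67 on their brighter probes, and their other probes gave 1.23 and 0.68. In all 3 the hsa-miR-205-5p arrays lay above the control arrays. XPO5, which exports precursors from the nucleus, had −0.62 on its brighter probe and −1.63 on the other. DICER1, DROSHA and their partners DGCR8, TARBP2 and PRKRA lay between −0.29 and 0.34. The GW182 proteins TNRC6A, TNRC6B and TNRC6C lay between −0.23 and 0.50, with −0.75 on the other probe of TNRC6C. The control replicates of TNRC6A, at 0.74 and 2.52, lay on both sides of its hsa-miR-205-5p arrays. Genes with seed matches were not counted, since that needs sequences of the 3′ ends of the messengers, which were not used here.

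Genes of mitosis and the spindle had the lowest median of the lists with 20 or more genes. Of 55 tested, 12 were called lower and 52 lay below 0. Their median was −0.68, −0.75 relative to that of all genes, and stayed below 0 in each of the 4 pairs of arrays (−0.90 to −0.56) and under every scaling. With the 4 genes that have only a bound placed at it, the median was −0.63. Both hsa-miR-205-5p arrays lay below both control arrays in 40 of the 55 genes (28.6% of all genes). Where a list is given here or below with calls in 1 direction, limma called 0 of its genes in the other, between 0 and 2 per list at an unadjusted p and 0 by the methods' t-test unadjusted.
FOXM1, the transcription factor of genes for mitosis, measured 2.13 and 1.96 with hsa-miR-205-5p against 4.32 and 4.71 in the control, a log2 fold change of −2.47 (adjusted p = 0.00799, standard error 0.19). AURKB, the kinase of the chromosomal passenger complex, measured 1.21 and 1.25 against 3.35 and 3.74, a log2 fold change of −2.31 (adjusted p = 0.00799, standard error 0.19). AURKA, the kinase of spindle poles, measured 1.33 and 1.53 against 3.14 and 4.36, a log2 fold change of −2.32 (adjusted p = 0.0209, standard error 0.41). The groups stayed apart in all 3 genes, and AURKA had the wider gap between its control replicates. KIF20A, a kinesin of the central spindle, measured −0.16 and −0.13 against 1.35 and 3.02 (log2 fold change −2.33), and here too control replicate 1 lay nearer to the hsa-miR-205-5p arrays. KIF4A, a kinesin of chromosome arms, measured 0.56 and 0.54 against 2.06 and 3.46 (log2 fold change −2.21), and its other probe gave −2.94. The checkpoint protein BUB3, the spindle assembly factor TPX2, the activator of the anaphase-promoting complex CDC20, the phosphatase CDC25B, the condensin subunit NCAPG and the separase ESPL1 fell as well, with log2 fold changes between −2.19 and −1.02. NCAPH, another condensin subunit, was at least 1.42-fold lower, with neither hsa-miR-205-5p array well above background.
Kinesins as a family were less uniform, with 4 called lower and 1 higher of 30 tested and a median of −0.21. KIF22, a kinesin of chromosomes, fell (−1.21), and KIF3C was at least 1.84-fold lower, with neither hsa-miR-205-5p array well above background. KIF17, a kinesin of cilia and dendrites, rose from −0.54 and −0.68 to 0.60 and 0.59, a log2 fold change of 1.21. DNA replication had 6 of 50 genes called lower and a median of −0.20, with 26 of them below 0. ORC6, of the origin recognition complex, measured −0.21 and −0.19 against 1.89 and 2.79, a log2 fold change of −2.54. The flap nuclease FEN1, the helicase subunits MCM4 and MCM2 and the clamp loader subunit RFC2 fell (−1.57, −1.29, −1.04 and −2.09), RFC2 being well above background on a single array with hsa-miR-205-5p. DNA repair stood near all genes, with a median of −0.020. Its helicase ERCC3, the nuclease subunit ERCC1 and the glycosylase OGG1 fell (−1.57, −1.17 and −1.03), while FANCE of the Fanconi core complex rose (1.11).
Of 20 G1 cyclins, CDKs and members of the E2F and RB families, E2F2 alone was called, with 2.14 and 1.23 against 3.55 and 3.23 and a log2 fold change of −1.71. The list's median was −0.29. Of 7 CDK inhibitors limma called 0, also at an unadjusted p, and 5 lay below 0. CDKN1A had signals of 1.11 and 0.31 against 1.60 and 1.78 (log2 fold change −0.98, adjusted p = 0.0706) and CDKN2D had a log2 fold change of −0.77. Histone genes had a median of −0.18, with 47 of 65 below 0 and 3 called lower, H2BC4 (−1.20), H3C4 (−1.06) and H4C16 (−1.84), the last being well above background on a single array with hsa-miR-205-5p. Copies of histone genes are much alike, so that their probes may not tell them apart.
The mitosis list was also set beside its promoters, 300-base windows around the gene's start from RefSeq. Of 48 genes of the list with a window, 35 (72.9%) held a CHR element (TTTGAA or TTCGAA on either strand), against 16.6% of all 27305 windows and 1044 of the 9474 of genes tested. A CCAAT box (CCAAT on either strand) was found in 72.9% of the list and in 35.7% of all windows (36.8% of those of genes tested). Among the 8 genes called lower that had a window, 4 held a CHR element and 6 a CCAAT box. The E2F motif (TTTGGCGC, TTTCCCGC or TTTCGCGC on either strand) was found in 44.2% of 43 windows of DNA replication genes, beside 2.79% of all windows and 4.7% of those of genes tested, and in 1 of the 4 windows of replication genes called lower. For 2 of the mitosis genes called lower, the window is shown on the strand of the gene from 5′ to 3′ (GRCh38.p14), with each match to CHR or CCAAT, on either strand, in capitals. These 2 genes were taken from the called genes whose window held both motifs, so they do not stand for all called genes. A match is a run of letters and not a bound site.
KIF4A, chrX:70289854-70290153, plus strand: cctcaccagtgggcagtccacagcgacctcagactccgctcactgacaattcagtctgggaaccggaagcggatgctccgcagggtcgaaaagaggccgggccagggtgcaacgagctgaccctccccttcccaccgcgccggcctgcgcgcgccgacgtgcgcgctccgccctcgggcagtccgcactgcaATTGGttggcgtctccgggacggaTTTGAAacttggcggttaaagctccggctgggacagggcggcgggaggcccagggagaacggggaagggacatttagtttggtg
CDC20, chr1:43358731-43359030, plus strand: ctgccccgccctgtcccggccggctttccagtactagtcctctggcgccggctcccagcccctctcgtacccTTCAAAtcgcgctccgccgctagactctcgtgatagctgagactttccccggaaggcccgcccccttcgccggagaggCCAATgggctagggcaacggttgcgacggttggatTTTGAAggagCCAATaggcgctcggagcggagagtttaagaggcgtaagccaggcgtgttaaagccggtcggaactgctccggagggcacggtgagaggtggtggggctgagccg
CDC20 measured 3.53 and 3.44 with hsa-miR-205-5p against 4.85 and 5.07 in the control, a log2 fold change of −1.47. Its groups did not overlap.
Genes of the p53 response and of the BCL2 family were called in both directions, as were genes over all. Of 21 genes of the p53 response, 2 were called lower and 1 higher (9.52% and 4.76%, beside 7.98% and 4.78% of all genes). Of 16 genes of the BCL2 family, 1 was called lower and 2 higher (6.25% and 12.5%). BBC3, the death activator PUMA, rose from 3.20 and 3.06 in the control to 4.66 and 4.72, a log2 fold change of 1.56 (adjusted p = 0.0083, standard error 0.16). BIK, another activator with only a BH3 domain, rose from 0.82 and 0.95 to 2.63 and 2.50, a log2 fold change of 1.68 (adjusted p = 0.008, standard error 0.16). BMF, of the same class, fell from 0.88 and 1.12 to −0.95 and −1.08, a log2 fold change of −2.01 (adjusted p = 0.00799, standard error 0.17). None of these 3 genes had overlapping groups, so that members of 1 class went opposite ways. PHLDA3, which restrains AKT, fell (−1.10), and AEN, a nuclease, was at least 2.4-fold lower, with neither hsa-miR-205-5p array well above background. The other 13 of 16 genes of the BCL2 family were not called.

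Epithelial junction and polarity genes had the highest median of the lists with 20 or more genes. The list also holds other genes of epithelia, among them the 3 called lower. Of 34 tested, 11 were called higher and 3 lower, with a median of 0.64 (0.47 to 0.82 over the pairs of arrays) that stayed above 0 under every scaling. Both hsa-miR-205-5p arrays lay above both control arrays in 21 of them (36.6% of all genes). EPCAM, an adhesion molecule of epithelia, measured 3.21 and 2.77 with hsa-miR-205-5p against 0.35 and 0.83 in the control, a log2 fold change of 2.40 (adjusted p = 0.00879, standard error 0.26). CDH1, the E-cadherin of adherens junctions, measured 0.87 and 0.64 against −1.09 and −1.33, a log2 fold change of 1.97 (adjusted p = 0.00799, standard error 0.18). CGN, cingulin of tight junctions, measured 3.38 and 3.60 against 1.32 and 1.23, a log2 fold change of 2.22 (adjusted p = 0.00799, standard error 0.17). In these 3 genes the groups lay apart by more than the spread of either. CDS1, an enzyme of phospholipid synthesis that is high in epithelia, measured 0.70 and 0.31 against −1.70 and −1.57 (log2 fold change 2.14). The splicing factor ESRP2, the desmosomal PKP3 and DSP, the P-cadherin CDH3, the tight junction molecule F11R and the polarity kinase PRKCZ rose by log2 fold changes between 1.10 and 2.08, F11R on its brightest probe only, with −0.13 on the other. CRB3, a polarity protein, was called higher, with 1.34 and 1.31 against −2.0 and −2.67 in the control, of which 1 array was well above background. In the other direction, AP1M2 fell, while the mucin MUC1 (−0.33 and −2.59 against 2.10 and 2.23) and the transcription factor ELF3 (−1.61 and −1.66 against 0.18 and 0.63) were called lower with a single hsa-miR-205-5p array well above background.
Of the 6 luminal and epithelial markers tested, EPCAM, CDH1 and ERBB3 were called higher, and KRT8, GATA3 and KRT18 were not called, with 0.85, 0.31 and 0.30, and with −1.09 on the other probe of KRT18. Of 14 keratins, KRT19 was called, with 10.54 and 10.75 against 9.67 and 9.26 in the control and a log2 fold change of 1.18. The keratins had a median of 0.32, above that of all genes under every scaling, though −0.067 when arrays were scaled to their median. Of 8 claudins, CLDN3 rose (1.09) and CLDN15, well above background on a single array with hsa-miR-205-5p, fell (−1.01).
Of 16 mesenchymal markers, 2 were called higher and limma called 0 lower, while the median was −0.27 and 10 lay below 0. LOXL2, which cross-links collagen, measured 7.20 and 7.17 against 5.69 and 5.48, a log2 fold change of 1.60 (adjusted p = 0.00829, standard error 0.16). CDH2, N-cadherin, measured −0.58 and −0.035 against −1.98 and −1.82, a log2 fold change of 1.59 (adjusted p = 0.0169, standard error 0.26). Both thus rose together with CDH1. VIM, the filament protein of mesenchymal cells, had a log2 fold change of −0.10 and was not called. Of 8 transcription factors of the epithelial to mesenchymal transition limma called 0, and at an unadjusted p 0 lower and 1 higher. TCF4 had signals of 0.30 and −0.12 against −1.81 and −0.75 (log2 fold change 1.37, adjusted p = 0.0656).

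Integrin chains were called in both directions, with 2 called lower and 1 higher of 14 and a median of −0.12. ITGA3, a laminin-binding chain, measured 4.39 and 4.29 with hsa-miR-205-5p against 6.21 and 6.13 in the control, a log2 fold change of −1.82. ITGA6, another laminin-binding chain, measured 5.80 and 5.47 against 3.80 and 4.04, a log2 fold change of 1.72, with its other probe at 1.10. The fibronectin-binding ITGA5 fell, as given among the targets. So ITGA3 and ITGA6, which bind the same kind of ligand, lay on opposite sides of the control. Focal adhesion genes had 5 of 28 called lower and 3 higher, with a median of −0.018, or 0.063 with the gene that has only a bound placed at it. The adaptor CRK and its partner RAPGEF1, the integrin activator FERMT2, the scaffold kinase ILK and the tensin TNS2 fell (−1.63, −1.46, −1.55, −1.53 and −1.49). FERMT1, the kindlin of epithelia, rose (1.42) where FERMT2 fell, and NEDD9 (1.40) and RAP1B (1.37) rose too. Among 57 genes of actin and its regulators, 5 fell (8.77%, beside 7.98% of all genes) and WASF1 rose (1.05). TAGLN2, an actin-binding protein, measured 3.60 and 3.70 against 5.66 and 6.13, a log2 fold change of −2.25. The cofilin partner WDR1, the thymosin TMSB10 and EVL fell (−1.39, −1.12 and −1.08).
Collagens had 4 of 21 called higher and 1 lower, with a median of 0.48, above 0 under every scaling. COL8A2, a short-chain collagen, measured −0.46 and −0.29 against −1.63 and −2.15, a log2 fold change of 1.52. COL12A1, which sits on collagen fibrils, measured 4.20 and 4.27 against 2.89 and 2.79, a log2 fold change of 1.40. Both had groups that stayed apart. COL4A5 of basement membranes and COL8A1 rose by 1.33 and 1.28. The collagen called lower was COL10A1. It stood well above background on neither array with hsa-miR-205-5p, and its fall was at least 1.76-fold (adjusted p = 0.031).
Matrix proteases, their inhibitors and the lysyl oxidases had 8 of 37 called higher and 1 lower, with a median of 0.45 (0.44 with bounds), above 0 under every scaling. MMP1, the interstitial collagenase, measured 6.17 and 6.17 with hsa-miR-205-5p against 3.98 and 3.90 in the control, a log2 fold change of 2.23 (adjusted p = 0.00799, standard error 0.15). TIMP1, an inhibitor of such proteases, measured 5.07 and 4.85 against 6.62 and 6.95, a log2 fold change of −1.82 (adjusted p = 0.0085, standard error 0.19). The protease was thus higher and the inhibitor lower on both hsa-miR-205-5p arrays. LOXL3 measured 2.38 and 2.21 against 0.60 and 0.44 (log2 fold change 1.77), beside a rise of LOXL2 given above and of LOX (1.13). MMP24 and MMP19 rose by 1.48 and 1.09. MMP9, the gelatinase, was well above background on both hsa-miR-205-5p arrays and on 1 of the 2 control arrays, with a log2 fold change of 2.29. The same held for ADAMTS6, a protease with thrombospondin repeats (1.66). Of 25 laminins and other matrix glycoproteins, 4 rose, among them CCN2 by 1.49, LAMA4 by 1.19 and EFEMP1 by 1.05. MFGE8 (−1.59) and THBS3 (−1.05) fell. In hyaluronan turnover the depolymerases CEMIP and CEMIP2 rose, by 1.81 and 1.85, among 8 genes.
The cystatins, inhibitors of cysteine proteases, fell where they were called. CST1 measured 2.68 and 2.56 against 5.13 and 5.47, a log2 fold change of −2.68, and CST2 is given above. CST3 fell (−1.24), with −0.47 on its other probe, and the lysosomal protease CTSD fell (−1.39). CST1 and CST2 are near-identical neighbours, so that each probe may also read the other gene. Over all 18 cystatins and cathepsins, 4 were called lower, with a median of 0.027 whose sign turned under all 5 scalings but which stayed below that of all genes under each.

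**Figure D3:**
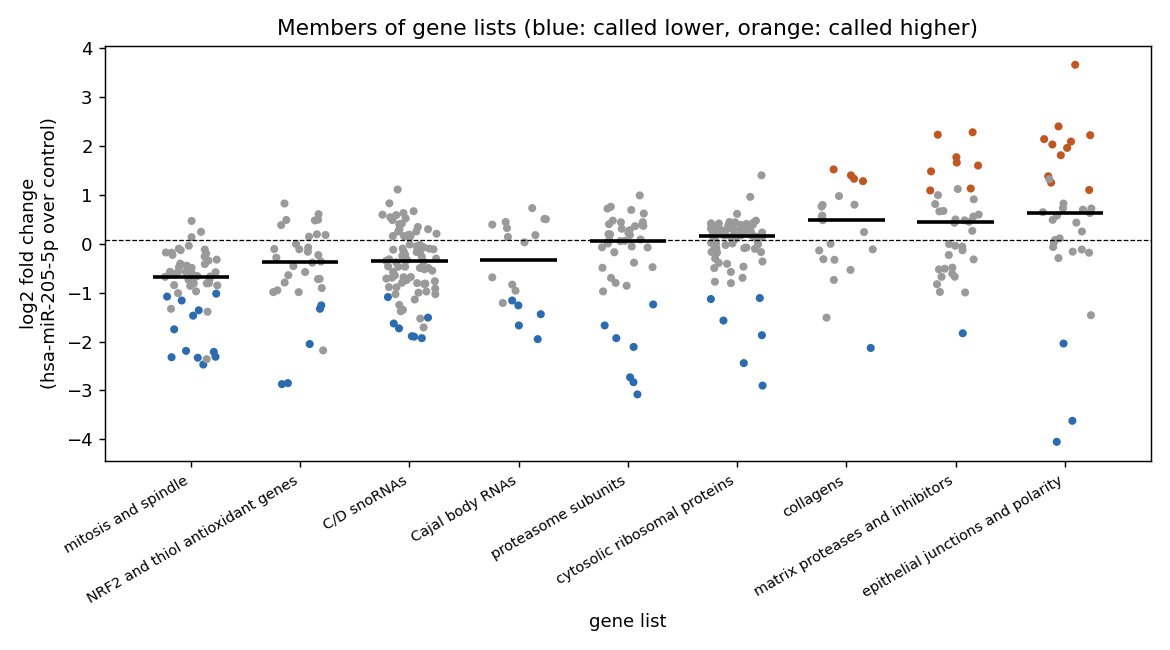
Log2 fold change (y axis) of the tested members of 9 gene lists (x axis), 1 point per gene, with genes called lower in blue and higher in orange, a bar at the median of the list and a dashed line at the median of all genes. The mitosis list lies almost wholly below 0 (52 of 55 genes). The junction list, which also holds other genes of epithelia, has calls of both directions (11 higher, and AP1M2, MUC1 and ELF3 lower). The medians of proteasome subunits and cytosolic ribosomal proteins turn below 0 under 4 of 5 scalings.

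Genes of the secretory pathway were called in both directions. For the translocon and signal recognition, 4 of 24 were called lower and 2 higher, with a median of 0.076, beside 0.077 for all genes, and under no scaling above theirs, while its sign turned under 4 of 5. SSR2 is described above. SRP68, of the signal recognition particle, measured 0.45 and 0.20 with hsa-miR-205-5p against 2.21 and 2.73 in the control, a log2 fold change of −2.15. The channel subunit SEC61A1 fell (−1.16), and SRP54 was at least 1.03-fold lower, with neither hsa-miR-205-5p array and 1 of the 2 control arrays well above background. The signal peptidase subunits SPCS3 and SEC11C rose, by 1.29 and 1.27. Of 31 ER chaperones and quality control genes, 5 fell and SIL1 rose (1.35). PPIB, a prolyl isomerase of the ER, measured −0.64 and 0.18 against 2.22 and 2.81, a log2 fold change of −2.75. PDIA6, HYOU1 and ERP29 fell (−1.76, −1.40 and −1.37), and EDEM1, well above background on a single array with hsa-miR-205-5p, (−1.01). The median of that list was 0.29, or −0.10 when arrays were scaled to their median, and above that of all genes under every scaling. The ER stress element was found in 17.9% of 28 promoter windows of the list, beside 0.0806% of all windows, and in none of the 5 genes called lower that had a window. Of 14 sensors and factors of the unfolded protein response, CHAC1, an enzyme that breaks down glutathione, rose from 4.52 and 3.95 to 6.0 and 6.08 (log2 fold change 1.80), with −0.039 on its other probe. DDIT3, the factor CHOP, fell (−1.70) and was well above background on a single array with hsa-miR-205-5p.
For vesicle coats, COPII had a median of 0.60, above 0 under every scaling, although 2 of its 12 genes fell and 1 rose. SEC24A, a cargo adaptor, rose (1.12), while PREB, which loads the coat's GTPase, and the scaffold SEC16A fell (−1.39 and −1.25). In the COPI list of 15 genes, whose median was 0.30 (−0.091 when arrays were scaled to their median, and above that of all genes under every scaling), ARF1 measured 3.10 and 2.79 against 4.62 and 4.32, a log2 fold change of −1.52, and COPG1 fell (−1.41). Clathrin and its adaptors had 4 of 30 called lower. Beside AP1M2, these were AP2B1 (−2.18), AP2A1 (−1.75) and AP5B1, which was at least 1.02-fold lower, with neither hsa-miR-205-5p array well above background. Golgi tethers and SNAREs had 5 of 26 called lower and a median of −0.22. GOLGA2 measured −0.96 and −1.17 against 0.29 and 1.55 (log2 fold change −1.98). COG4, COG7 and YKT6 fell (−1.46, −1.01 and −1.16), and GOLGA1 was at least 3.27-fold lower, with neither hsa-miR-205-5p array well above background. The p24 and KDEL cargo receptors had a median of −0.54, below 0 under every scaling, with 9 of 12 below 0. Their calls went both ways, TMED9 lower (−1.56) and KDELR2 (1.24) and MCFD2 (1.16, with −0.42 on its other probe) higher. In the ESCRT machinery, CHMP3, CHMP7, CHMP1A and VPS25 fell (−1.44, −1.25, −1.07 and −1.40), of 24 genes, and the probes of CHMP3 ran from −1.44 to 0.45.

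Proteasome subunits held large falls beside a median of 0.061 whose sign turned under 4 of 5 scalings but which lay below that of all genes under each (−0.015 relative to it as reported). Of 41, 7 were called lower. PSMD13, of the regulatory particle, measured 1.83 and 1.75 with hsa-miR-205-5p against 4.41 and 5.33 in the control, a log2 fold change of −3.08 (adjusted p = 0.00841, standard error 0.32). PSMC5, an ATPase of that particle, measured 0.26 and 0.22 against 2.47 and 3.47, a log2 fold change of −2.73 (adjusted p = 0.0104, standard error 0.34). PSMB5, a catalytic subunit of the core, measured 4.94 and 4.93 against 6.52 and 7.58, a log2 fold change of −2.11 (adjusted p = 0.0182, standard error 0.35). In these 3 genes the hsa-miR-205-5p replicates lay close together and control replicate 1 lay below control replicate 2. PSMC3 and PSMC4 fell (−1.67 and −1.24). The immunoproteasome subunits PSMB8 and PSMB9 measured 0.48 and 0.49 against 2.69 and 3.95 and 2.99 and 2.92 against 4.46 and 5.32, and fell (−2.83 and −1.94). They also stand in the list of antigen presentation, of which 8 of 24 were called lower, with a median of −0.15 that stayed below 0 under every scaling. HLA-DRB1, HLA-DPB1 and HLA-DPA1, chains of class II molecules, fell (−2.0, −1.88 and −1.48), and the 4 probes of HLA-DPB1 gave values between −3.49 and −1.44. The nonclassical class I chain HLA-F, the peptide-trimming ERAP2 and the loading factor TAPBP fell (−1.46, −1.50 and −1.29), while the 3 probes of TAPBP ran up to 0.26. HLA genes have near-identical copies, so that their probes may read more than 1 gene. Of 41 lysosomal genes, 4 fell (9.76%, beside 7.98% of all genes), and 16 lay below 0, beside 45.3% of all genes. PSAP, the precursor of the saposins, measured 5.41 and 5.54 against 7.34 and 7.44, a log2 fold change of −1.92. HEXA, of ganglioside breakdown, fell (−1.93), and CTSD is given above.

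For translation, most ribosomal protein genes were not called. Of 83 in the cytosolic list, 6 were called lower, and the median of 0.15 lay close to that of all genes, with a sign that turned under 4 scalings and a side of that median that turned under 3. RPS3 measured 3.40 and 3.36 with hsa-miR-205-5p against 5.99 and 6.57 in the control, a log2 fold change of −2.90 (adjusted p = 0.00799, standard error 0.23). RPL7L1, RPL10L, RPS9, RPL29 and RPS14 fell (−2.44, −1.87, −1.57, −1.13 and −1.11). Ribosomal protein genes have many pseudogene copies, so that these probes may read more than 1 locus. Mitochondrial ribosomal proteins had 6 called lower and 3 higher of 76 (7.89% and 3.95%, shares no larger than those of all genes). MRPL17 measured 2.78 and 2.85 against 4.82 and 5.72 (log2 fold change −2.46). MRPS7, MRPS18A, MRPL46, MRPL24 and MRPL54 fell (−2.22, −1.37, −1.24, −1.10 and −1.07). MRPL19 and MRPL50 rose by 1.35 and 1.02, and MRPL2 rose from 3.66 and 2.99 to 4.82 and 5.08 (log2 fold change 1.62). Ribosome biogenesis had 8 of 48 called lower and a median of 0.15, whose sign turned under 2 scalings and whose side of the median of all genes turned under 3. NOP56, a core protein of C/D ribonucleoproteins, measured 2.36 and 2.49 against 4.59 and 5.73, a log2 fold change of −2.73, but its 3 probes ran up to 0.70. NOP2, a methyltransferase of the large subunit RNA, measured 1.42 and 1.33 against 3.24 and 3.92, a log2 fold change of −2.21. WDR74, NOP16, NOL6 and PES1 fell (−1.53, −1.48, −1.37 and −1.19), with −0.0098 on the other probe of NOL6, while UTP14A and POLR1E, with neither hsa-miR-205-5p array well above background, were at least 3.8-fold and 2.34-fold lower. Of 56 genes known to be induced by MYC, 9 were called lower, NOP56, NOP2, WDR74, NOP16 and PES1 among them, with the repair enzyme APEX1 (−1.84), the prohibitins PHB1 (−1.30) and PHB2 (−1.34) and the importin IPO4 (−1.03). Their median was −0.091.
Small nucleolar RNAs were called lower in 18 of 169 cases (10.7%). Among 85 of the H/ACA class, which guide pseudouridylation, 11 were called lower although the median was 0.0031, whose sign turned under all 5 scalings but which stayed below that of all genes under each. Of these calls, 7 are copies of SNORA70. SNORA70 itself measured 1.68 and 1.63 against 3.83 and 4.80 (log2 fold change −2.66), SNORA70B measured −1.39 and −1.11 against 1.78 and 2.62 (−3.45), and SNORA70E measured 0.24 and 0.45 against 2.88 and 3.76 (−2.97). SNORA70G fell (−2.88). SNORA70C and SNORA70F were at least 7.78-fold and 1.74-fold lower, with no hsa-miR-205-5p array well above background, and SNORA70D was called lower (−1.29 and −3.52 against 1.18 and 1.90) with 1 of the 2 such arrays well above background. The copies are near-identical, so these calls are uncertain as separate ones and may stand for 1 RNA. SNORA68, SNORA67, SNORA52 and SNORA6 fell (−1.39, −1.19, −1.12 and −1.10). Of 84 of the C/D class, which guides methylation of ribose, 62 lay below 0 and 7 were called lower, with a median of −0.36 (−0.32 with the 12 genes that have only a bound placed at it), below 0 under every scaling. SNORD35B and SNORD34 measured 1.71 and 1.74 against 3.43 and 3.88 and 1.32 and 0.92 against 3.02 and 3.02, and fell (−1.93 and −1.90). SNORD56 and SNORD35A fell (−1.63 and −1.51), and the other 3 genes called were not well above background on both hsa-miR-205-5p arrays.
The RNAs of Cajal bodies, which guide changes of spliceosomal RNAs, had 5 of 18 called lower and a median of −0.33. SCARNA8 measured −0.71 and −0.70 against 1.48 and 1.0, a log2 fold change of −1.95 (adjusted p = 0.00924, standard error 0.23). SCARNA13 measured −0.15 and −0.070 against 1.61 and 1.50, a log2 fold change of −1.67 (adjusted p = 0.00799, standard error 0.15). Their groups did not overlap. SCARNA23, SCARNA16 and SCARNA11 fell (−1.45, −1.26 and −1.16).

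In glycolysis, 5 of 22 genes were called lower, and the median was −0.23, below 0 under every scaling. ENO1 and ENO2 are enolases. ENO1 measured 6.65 and 6.49 with hsa-miR-205-5p against 8.26 and 8.46 in the control, a log2 fold change of −1.79 (adjusted p = 0.00799, standard error 0.17). ENO2 measured −0.075 and −0.23 against 2.09 and 3.21, a log2 fold change of −2.81 (adjusted p = 0.0122, standard error 0.38). GAPDH, often taken as a reference gene, measured 7.58 and 7.48 against 9.07 and 9.37, a log2 fold change of −1.69 (adjusted p = 0.0085, standard error 0.18). The hsa-miR-205-5p arrays lay below both control arrays in all 3 genes and under every scaling GAPDH stayed below 0. PKM, the pyruvate kinase, measured 6.21 and 6.29 against 7.81 and 7.87 (log2 fold change −1.59). ALDOC fell (−1.34) and was well above background on a single array with hsa-miR-205-5p. Of 14 genes in common use as references, GAPDH was the only 1 called, and their median was −0.041. In the pentose phosphate pathway, PGD measured 1.71 and 1.93 against 4.35 and 4.95 (log2 fold change −2.83) and RPIA measured 3.22 and 3.24 against 4.98 and 5.0 (log2 fold change −1.76), of 9 genes. In the citric acid cycle, the isocitrate dehydrogenase subunits IDH3B and IDH3G and the succinate dehydrogenase subunit SDHB fell (−2.12, −1.23 and −1.45), and DLD was at least 1.41-fold lower, with neither hsa-miR-205-5p array well above background.
Respiratory chain genes were seldom called. Of 37 of complex I, NDUFA13 fell (−1.94) and NDUFA6 rose (1.20). Of 19 subunits of ATP synthase limma called 0, and at an unadjusted p 2 lower and 0 higher. ATP5F1B measured 4.07 and 4.10 against 5.07 and 6.39 (log2 fold change −1.64, adjusted p = 0.0521), and ATP5MC1 had −1.15 (adjusted p = 0.0747). Mitochondrial carriers had 6 of 36 called lower and a median of −0.27 (−0.18 with the 3 genes that have only a bound placed at it). SLC25A20, SLC25A42, SLC25A24 and SLC25A11 fell (−1.57, −1.34, −1.28 and −1.16), while the other 2 of the 6 calls, SLC25A26 and SLC25A21, had no hsa-miR-205-5p array well above background and do not show a measured 2-fold fall, the first being at least 1.16-fold lower and the second having no bound above 1.
Genes of the NRF2 response and thiol antioxidants lay mostly below 0, 25 of 34, with 5 called lower and a median of −0.37 that kept its sign under every scaling. TXNRD1, the cytosolic thioredoxin reductase, measured 0.33 and 0.26 against 2.81 and 3.51, a log2 fold change of −2.87. FTL, the light chain of ferritin, measured 5.77 and 5.57 against 8.28 and 8.76, a log2 fold change of −2.85, with its 3 probes between −2.85 and −0.73. PRDX2, a peroxiredoxin, measured 2.21 and 2.33 against 4.18 and 4.48, a log2 fold change of −2.05. All 3 were low on both hsa-miR-205-5p arrays. PRDX5 and the aldo-keto reductase AKR1C3 fell (−1.26 and −1.33). S100 proteins had a median of −0.64, with 8 of 10 below 0, but limma called 0 of them, and 1 lower at an unadjusted p. S100P and S100A4 had −0.93 (adjusted p = 0.0349) and −0.90 (adjusted p = 0.0298), each a difference under 2-fold.

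Immune genes moved in both directions. Of 37 interferon-induced genes, 3 were called lower and 3 higher (8.11% each, beside 7.98% and 4.78% of all genes), and the median was 0.36, or −0.025 when arrays were scaled to their median, and above that of all genes under every scaling. IFIT1, a sensor of foreign RNA, rose from 5.80 and 5.85 in the control to 7.46 and 7.28, a log2 fold change of 1.54 (adjusted p = 0.00836, standard error 0.16). IFIT3, its binding partner, fell from 3.85 and 5.01 to 2.17 and 1.63, a log2 fold change of −2.54 (adjusted p = 0.0174, standard error 0.41). The groups of neither gene overlapped, so these partners went opposite ways. IRF1, a transcription factor, fell (−2.06), as did IFI35 (−1.50), while IFIT2 rose (1.11) and MX2, well above background on 1 of the 2 control arrays, rose (1.81). Of 15 cytokines and chemokines, 3 rose and 1 fell, with a median of 0.57, above 0 under every scaling. IL24 measured 3.15 and 3.13 against 1.44 and 1.61 (log2 fold change 1.61). IL11 and the chemokine CXCL1 rose by 1.24 and 1.12, and CSF1, the growth factor of macrophages, fell (−1.42), with its other probes reaching 0.35. In the NF-kB list, ICAM1, an adhesion molecule for leukocytes, measured 3.49 and 3.44 against 1.40 and 1.19 (log2 fold change 2.17), and RELB, a subunit of the factor, rose by 1.38, of 21 genes.
Among signalling pathways, that of Hippo and YAP had 4 of 23 genes called higher and 16 with both hsa-miR-205-5p arrays above both control arrays (36.6% of all genes). Its median was 0.38, 0.30 above that of all genes, and it stayed above theirs under every scaling, though it was −0.0094 when arrays were scaled to their median. SAV1, a scaffold of the kinase cascade, measured 4.14 and 4.07 with hsa-miR-205-5p against 2.32 and 2.35 in the control, a log2 fold change of 1.77 (adjusted p = 0.00799, standard error 0.15). PTPN14, which holds YAP in the cytoplasm, measured 3.92 and 3.86 against 2.46 and 2.36, a log2 fold change of 1.48 (adjusted p = 0.00884, standard error 0.16). CCN2, a gene that YAP induces, measured 3.67 and 3.76 against 2.0 and 2.46, a log2 fold change of 1.49 (adjusted p = 0.0124, standard error 0.21). Inhibitors of YAP and 1 of its response genes were thus higher on the same arrays. NF2 rose by 1.32 with an adjusted p of 0.0499, at the edge of the call.
Notch genes had 3 of 21 called lower and a median of −0.39 (−0.32 with the 4 genes that have only a bound placed at it), below 0 under every scaling. LFNG, a glycosyltransferase that tunes the receptor, fell (−1.33), the coactivator MAML1 (−1.06) and the ligand JAG1, well above background on a single array with hsa-miR-205-5p, (−1.72). In the Wnt list, FZD5, FZD4 and WNT3 rose, FZD5 from −1.46 and −1.08 to 0.77 and 0.85 (log2 fold change 2.08), FZD4 by 1.06 and WNT3 by 1.25, beside a median of −0.046 over 25 genes (−0.017 with bounds). For TGF-beta, BMP and activin, 3 of 30 fell and 3 rose. ID2, an inhibitor of DNA binding induced by BMP, measured 0.42 and 0.47 against 2.13 and 2.13 (log2 fold change −1.68), ID3 fell (−1.22) and the ligand BMP4 (−1.02). INHBB, an activin subunit, and NOG, an antagonist of BMP, rose by 1.50 and 1.40, and BMP6 was at least 1.62-fold higher, being well above background on neither control array and on 1 of the 2 others. Of 9 ERBB receptors and ligands, HBEGF measured 0.78 and 0.79 against 2.68 and 3.88 (log2 fold change −2.50), opposite to the rise of ERBB3. In the IGF axis, IGFBP4 and the scavenging receptor IGF2R fell (−1.42 and −1.17), of 12 genes.

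Of 12 sialyltransferases, 3 were called lower, with a median of −0.39, below 0 under every scaling. ST6GALNAC6 measured 2.18 and 1.99 with hsa-miR-205-5p against 3.30 and 3.49 in the control, a log2 fold change of −1.30. ST3GAL1 measured 0.84 and 0.93 against 1.99 and 2.25, a log2 fold change of −1.24. ST3GAL3 fell (−1.16) on its brightest probe, but its 3 probes ran up to 1.11 and their mean gave 0.0041. Of 38 other Golgi glycosyltransferases, 7 rose and 2 fell. B3GNT3 is given above. B3GNT8 measured 3.30 and 3.37 against 1.94 and 1.63, a log2 fold change of 1.55. B3GNT9 measured −0.39 and −0.22 against 1.14 and 1.26, a log2 fold change of −1.51. Enzymes of 1 family thus moved apart. B3GNT5, C1GALT1, GCNT2 and FUT4 rose by 1.32, 1.30, 1.15 and 1.10. MGAT4A was at least 2.2-fold higher, with neither control array well above background, and GALNT11 was at least 2.74-fold lower, with neither hsa-miR-205-5p array well above background.

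**Figure D4:**
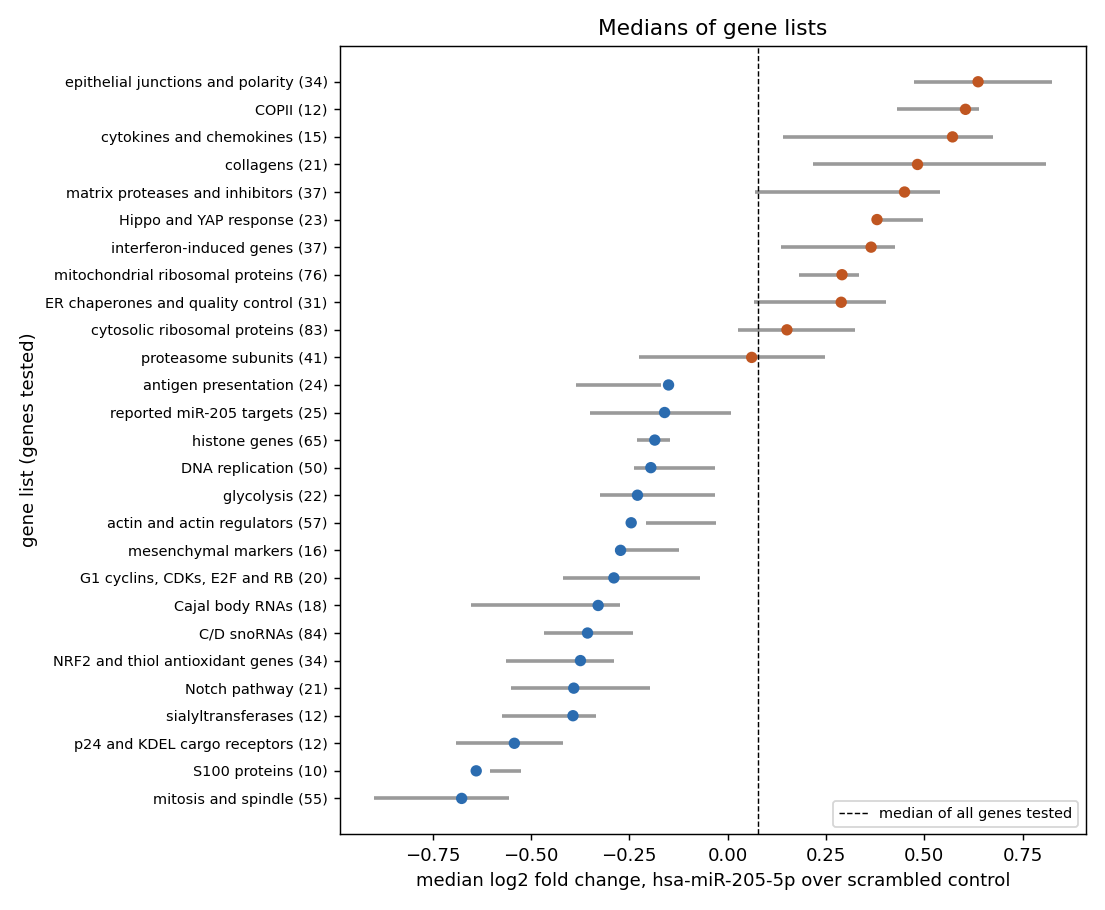
Median log2 fold change (x axis) of 27 gene lists (y axis, with the number of genes tested), as points, with the range of the medians over the 4 pairs of arrays as bars and the median of all genes (0.077) as a dashed line. Mitosis genes lie lowest (−0.68) and epithelial junctions highest (0.64), a point can lie outside its bar since it is a median of means, and of the points above 0 those between proteasome subunits (0.061) and the Hippo list (0.38) fall below 0 when arrays are scaled to their median, where the median of all genes is −0.31.

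Families were also read from the symbols, as all stems of letters shared by 10 or more genes tested. The highest shares called lower were those of the aldo-keto reductases (AKR, 5 of 11), the charged multivesicular body proteins (CHMP, 3 of 10), the core proteasome subunits (PSMB, 3 of 10), the Cajal body RNAs (SCARNA, 5 of 18), the splicing factors named PRPF (3 of 12) and the stem ST, in which sialyltransferases prevail (4 of 17), against 7.98% of all genes. The family medians were −0.95 (AKR), −0.76 (CHMP), 0.198 (PSMB), −0.33 (SCARNA), −0.48 (PRPF) and −0.25 (ST), beside 0.077 for all genes. In PSMB 6 of 10 genes lay above 0, so that family did not fall as a whole. AKR1A1 measured 1.03 and 0.75 against 2.57 and 3.10 in the control, a log2 fold change of −1.95. AKR1B1, the aldose reductase, measured 3.98 and 3.76 against 5.30 and 5.80, a log2 fold change of −1.68. Both lay below the control on either array. AKR1C8 stood well above background on neither array with hsa-miR-205-5p, and its fall was at least 1.97-fold (adjusted p = 0.008). PRPF8, at the centre of the spliceosome, PRPF38B and PRPF6 fell (−1.32, −1.22 and −1.11). ST7, well above background on a single array with hsa-miR-205-5p, fell (−1.49).
The highest shares called higher were those of the matrix metalloproteinases (MMP, 4 of 11), the DENN domain proteins (DENND, 3 of 11), the serine proteases named PRSS (3 of 11, none of the 3 being well above background on both control arrays), the stem IL, which holds interleukins, their receptors and other genes with these letters (8 of 30, 1 of which was well above background on none of the 4 arrays), the collagens (COL, 4 of 21) and the heat shock proteins named HSPA (2 of 11, a share that the stem KLHL equals with 4 of 22), against 4.78% of all genes. The family medians were 0.56 (MMP), 0.0475 (DENND), 0.305 (PRSS), 0.56 (IL), 0.48 (COL) and −0.012 (HSPA), beside 0.077 for all genes. DENND and HSPA thus did not rise as a whole. The stems PRSS, IL and COL also held 1 gene called lower each, PRSS3 (−1.49), IL11RA (−1.14) and COL10A1. IL4I1, an amino acid oxidase, rose from −1.23 and −1.31 to 0.94 and 1.32, a log2 fold change of 2.40. PRSS16 was not well above background on either control array and was at least 5.33-fold higher (adjusted p = 0.00799). PRSS8 and PRSS22 were each well above background on both hsa-miR-205-5p arrays and on 1 of the 2 control arrays, with 0.043 and 0.62 against −1.51 and −2.49 and 0.16 and 0.11 against −2.59 and −1.04. DENND6A, DENND2D and DENND3 rose by 1.68, 1.16 and 1.10. HSPA1A and HSPA1B, heat shock genes so alike that their probes may not tell them apart, rose by 1.31 and 1.03.

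The hsa-miR-205-5p arrays were also set directly against those of hsa-miR-214-3p. There the control arrays enter through the shared estimate of the spread and the filter on dim probes, but not through the difference itself. The 2 hsa-miR-205-5p arrays are the same in both contrasts, so a gene low or high on them is pushed the same way in both. A gene called in both is therefore not called by independent data. In this contrast limma called 1352 genes lower (11.3%) and 1099 higher (9.18%) with hsa-miR-205-5p. Without hsa-miR-214-3p replicate 2 these counts were 185 and 140, without its replicate 1 they were 335 and 265, and without hsa-miR-205-5p replicate 2 they were 860 and 671, while without hsa-miR-205-5p replicate 1 they were 1054 and 648. With either control array left out they were 1502 and 1201. The median of all genes in this contrast was 0.12. The mitosis list held 15 genes lower than with hsa-miR-214-3p and its median was −0.72. FOXM1 measured 5.06 and 5.0 with hsa-miR-214-3p, a log2 difference of −2.99 (adjusted p = 0.00383). The junction list held 11 genes higher and 4 lower, with a median of 0.55. CDH1 measured −1.30 and −1.47 with hsa-miR-214-3p, and hsa-miR-205-5p was higher by 2.15 (adjusted p = 0.00388). IL23A and IFNL2 were higher by 4.09 and 3.85. Of the 956 genes called lower against the control, 784 were also lower than with hsa-miR-214-3p. Of the 572 called higher, 285 were also higher than with hsa-miR-214-3p. Some genes called against the control were thus not called against hsa-miR-214-3p. HHIP measured 2.12 and 2.09 with hsa-miR-214-3p, a difference of −0.0077 (adjusted p = 0.977), and RPIA measured 3.16 and 3.11, a difference of 0.095 (adjusted p = 0.639). The Cajal body RNAs, several of which fell against the control, had 7 of 18 higher than with hsa-miR-214-3p and a median of 0.86. SCARNA13 measured −1.46 and −1.38 there, and hsa-miR-205-5p was higher by 1.31 (adjusted p = 0.00533). CSF1 likewise fell against the control but was higher than with hsa-miR-214-3p by 1.05 (adjusted p = 0.0126).

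**Figure D5:**
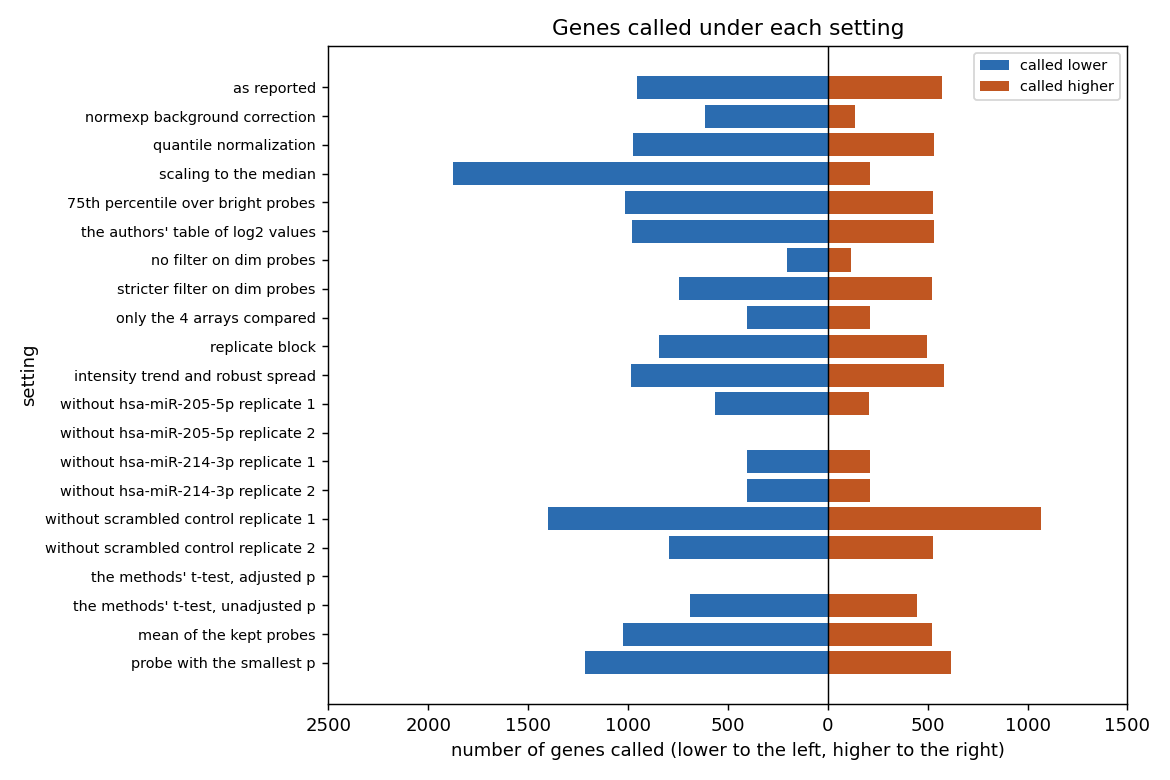
Number of genes called lower (blue, to the left) and higher (orange, to the right) under each setting (y axis), counted on the x axis. The bars as reported hold 956 and 572 genes, scaling to the median gives 1876 and 212, and the settings without bars are the fit without hsa-miR-205-5p replicate 2 and the methods' t-test after adjustment.

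These are RNA levels from 1 line, 1 dose and 1 time, with 2 arrays a group, and protein was not measured. A group of 2 cannot be tested for an outlying array, and the control replicates differed more (standard deviation 0.667 of the log2 difference over all genes) than those of hsa-miR-205-5p (0.504). limma called 0 genes without hsa-miR-205-5p replicate 2 (1101 lower and 729 higher at an unadjusted p, and 0 after adjustment by the methods' t-test on all 4 arrays), and the split of the calls moved with the scaling. A total shift in RNA per cell would be removed by any of the scalings used and cannot be seen here. Of the genes called with several kept probes, 147 of 176 lower and 88 of 116 higher had all probes on the same side of 0. A second probe stayed under 2-fold in further genes named above, BUB3 (−0.43), ERCC1 (−0.34), OGG1 (−0.36), WDR1 (−0.41), SEC16A (−0.39), COG4 (−0.32), CHMP1A (−0.26), PRPF38B (−0.44), ST7 (−0.44), RAPGEF1 (−0.88), LFNG (−0.96) and RPS14 (−0.64) among those that fell and LAMA4 (0.61), MMP19 (0.54), IFIT2 (0.76), WASF1 (0.99) and DENND3 (0.92) among those that rose.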

How the data were processed

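The authors scanned Agilent SurePrint G3 arrays with Feature Extraction 11.0 and deposited, per spot, a processed signal that is an intensity after background subtraction and spatial detrending. They also deposited a table of log2 values, used here as an alternative. Control and outlier spots (245 to 463 per array) were left out, spots of a probe were averaged, and the 75th percentile (35.1 to 58.0) was removed on the log2 scale. Probes had to stand well above background on both arrays of some group. A gene is its kept probe with the highest mean signal, and names come from RefSeq genes (GRCh38.p14).

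limma 3.58.1 (lmFit, eBayes) in R 4.3.3 with the package data.table (1.17.8) was run on all 6 arrays, with 3 residual and 2.47 prior degrees of freedom and Benjamini-Hochberg adjustment over the 18464 kept probes. The code was tested on simulated data. Python 3.11.15, pandas 2.3.3 and matplotlib 3.10.9 served for motifs and figures. Gene lists are described without a test.

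Named are the 12 largest falls and 12 largest rises among called genes measured on all 4 arrays with groups apart and probes on 1 side of 0, up to 4 such called members of each list by size of change (2 where none was called), up to 3 of each symbol family named, all tested miR-205 targets and genes of miRNA machinery, and cell type markers. The further called members of the lists, and the promoters shown, were chosen after their values were seen. The members and lists were chosen with earlier results of these data known. The values of 5 genes that this choice takes in are not reported here, and those genes stay in every count of calls and every list median, but not in the counts over named genes. The alternatives are given at the end. Seed sites were planned but not run, for want of 3′ end sequences.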

Additional observations from a re-analysis of the deposited data

Results flagged for a closer look

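Kept probes without a gene symbol are outside the gene counts above. Of 3079 such probes, limma called 173 lower (5.62%) and 113 higher (3.67%) with hsa-miR-205-5p against the control. What these probes measure was not looked at. Groups of 2 arrays were not tested for an outlying array.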

How the results depend on the processing

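Against the 956 genes lower and 572 higher as reported, normexp background correction (offset 50, on the median signal, since the files hold no mean signal) gave 616 and 134, scaling to the median 1876 and 212, no filter on dim probes 206 and 114, and a fit on only the 4 arrays compared 405 and 212. The methods' t-test gave 0 and 0 after adjustment and 692 and 448 without. With no fold limit 1350 genes were lower and 1175 higher, so that 53.5% of the calls were falls. Leaving out each array in turn gave 0 to 1400 lower and 0 to 1065 higher, the lone array being assumed to vary like the other groups.

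For hsa-miR-205-5p against hsa-miR-214-3p, where the alternatives were added after seeing the data, the 1352 lower and 1099 higher became 646 and 417 with normexp, 726 and 522 with no filter, and 1801 and 638 with scaling to the median. Leaving out each array gave 185 to 1502 lower and 140 to 1201 higher.

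With the replicate number as a block (replicate block) 843 genes were lower and 498 higher against the control, and 1290 and 1088 against hsa-miR-214-3p. That the replicate numbers mark shared batches is not established, since the labels do not say so, and the replicate differences of hsa-miR-205-5p and the control correlated at 0.00819 over all genes. Those of hsa-miR-205-5p correlated with the ones of hsa-miR-214-3p at 0.109.

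Over the named genes, those added later included, 4974 results under an alternative kept their direction and call or stayed within the error, 1739 lost the call, 42 gained it, 120 moved without a call and 1 changed sign, ST3GAL3 (0.00411), with the mean of the kept probes. Of the list medians, 1128 stayed within the spread between array pairs and 258 did not. Some alternatives, the replicate block and the methods' t-test among them, leave the log2 fold changes as reported. Under those no list median could move, so the 1128 include results that were fixed in advance. For the named genes only the call could change under them, and not the sign. The planned block by slide or by scan is absent, since there is 1 slide and 1 scan (not run). The cause of these differences was not tested.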
